A study of Homo sapiens with 30 samples.

Results

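A pair of SH-EP lines that differ in 1 residue of their MYCN transgene were compared by RNA-Seq: the line with MYCN carrying T58A and S62A, and the line with MYCN carrying T58A alone, both after 6 hours in DMSO. The members are the 3 DMSO libraries of each line, 6 of the 30 libraries of the series, chosen by the cell line and treatment that their names carry. SH-EP is an established neuroblastoma line of mesenchymal character without MYCN amplification, and each derivative is 1 stable line that expresses human MYCN from an exogenous promoter. The libraries set beside them are those of the same lines after 6 hours with 1 μM CYC065, a CDK9 and CDK2 inhibitor, those of the WT MYCN and S62A MYCN lines in DMSO, and those of parental SH-EP, with 3 libraries in each group. With 1 line per genotype, the substitution at S62 and any other difference between the lines cannot be told apart. Whether the 3 libraries of a group came from separate cultures is not given, so p values measure the spread between libraries, which may be technical.

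MYCN is a transcription factor that pairs with MAX and binds E-box DNA, and its protein is short lived. A kinase such as CDK1 phosphorylates serine 62, which primes GSK3B to phosphorylate threonine 58, and the doubly marked protein loses the serine 62 phosphate to the phosphatase PP2A and is ubiquitinated by the FBXW7 ligase. Alanine at position 58 removes the mark that FBXW7 reads, and alanine at position 62 removes the priming mark, so the comparison asks what changes when a MYCN that already lacks the threonine 58 mark also lacks serine 62. The reference coding sequence is shown because both substitutions lie in it. It was read from GRCh37, chr2:16082343-16082387, plus strand, within MYCN (chr2:16080672-16087129), and covers codons 53 to 67, with codon 58 (threonine) and codon 62 (serine) in capitals.
MYCN codons 53 to 67: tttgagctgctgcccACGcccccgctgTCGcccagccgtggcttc
The table holds 1 value per gene and no bases, so the substitutions themselves could not be read in these libraries.

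Values are fragments per kilobase of transcript scaled to library size (FPKM) as the authors deposited them, and changes are differences of group means on the log2(FPKM + 0.1) scale, which understates the changes of low genes. Testing was limited to the 11575 genes whose average across the 30 libraries reached 1 FPKM, in 1 limma fit, and a gene passed at a Benjamini-Hochberg adjusted p under 0.05. Read totals are not given. From the steps of low values, relative depth was 0.774 to 1.0 in the T58A libraries and 0.722 to 0.993 in the T58A S62A libraries, set to 1 for the first T58A library (numbered 0 in the file, the others 1 and 2). Correlations of log2 levels were 0.925 to 0.936 within the lines and 0.914 to 0.924 between them. T58A library 1 had more spike-in signal, 27598 FPKM against 16053 and 17248 FPKM in the other T58A libraries and 14881 to 18664 FPKM in the T58A S62A libraries. Adrenergic neuroblastoma genes such as PHOX2A, HAND1 and DBH were listed at 0 in all 6 libraries, as were the immune markers CD3E, LYZ and SPI1, the epithelial marker CDH1 and the endothelial marker KDR. Listed at 0 were 8 of 30 adrenergic regulators, 18 of 41 adrenergic, 7 of 11 immune, 6 of 14 epithelial and 3 of 9 endothelial markers. Others of these lists were present, such as the epithelial KRT18 with means of 203 FPKM in T58A and 283 FPKM in T58A S62A.

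Of the 11575 genes, 1937 (16.7%) passed the test between T58A S62A and T58A in DMSO. T58A S62A was higher for 859 (7.42%) and lower for 1078 (9.31%). The median absolute log2 change of the genes that passed was 0.40, and 1356 of them changed by less than 1.5-fold. A change of at least 2-fold was seen in 232, of which 86 were higher and 146 lower. The 3 libraries of the lines did not overlap in 3252 genes (28.1%), among them 1795 of the 1937. With each library scaled to its spike-ins, 317 genes passed, 175 higher and 142 lower, and the median gene moved by 0.12. Without T58A library 1 the scaled count was 326, with 67 higher and 259 lower, and the median gene moved by −0.10, so directions below are relative to the total signal of a library. In these bulk samples, fewer cells with a transcript and less of it per cell cannot be told apart.

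MYCN itself, chr2 as above, was at 7.27, 9.84 and 8.44 FPKM in the T58A libraries and at 15.7, 9.06 and 15.7 FPKM in the T58A S62A libraries. T58A S62A library 1 lay within the T58A range, so the groups overlapped. The log2 change was 0.62 (SE 0.17, adjusted p = 0.0108), the exact permutation test of the 6 values gave p = 0.2 (two-sided, 0.1 being the smallest that 3 against 3 can give), and the change ended its call without T58A library 0 (0.52, adjusted p = 0.0693), without T58A S62A library 0 (0.49, adjusted p = 0.0749) and without T58A S62A library 2 (0.49, adjusted p = 0.0779). It was 0.89 without T58A S62A library 1. Parental SH-EP was at 0 in all 3 libraries. In CYC065 the groups did not overlap, with T58A at 10.6, 9.73 and 13.1 FPKM and T58A S62A at 18.4, 20.1 and 16.5 FPKM (log2 change 0.72, adjusted p = 0.00229). Between S62A and WT the difference had the other sign, from a mean of 12.9 FPKM in WT to 5.72 FPKM in S62A (log2 change −1.16, adjusted p = 1.46e-05). The part of MYCN level in the other differences was not tested.

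**Figure D1:**
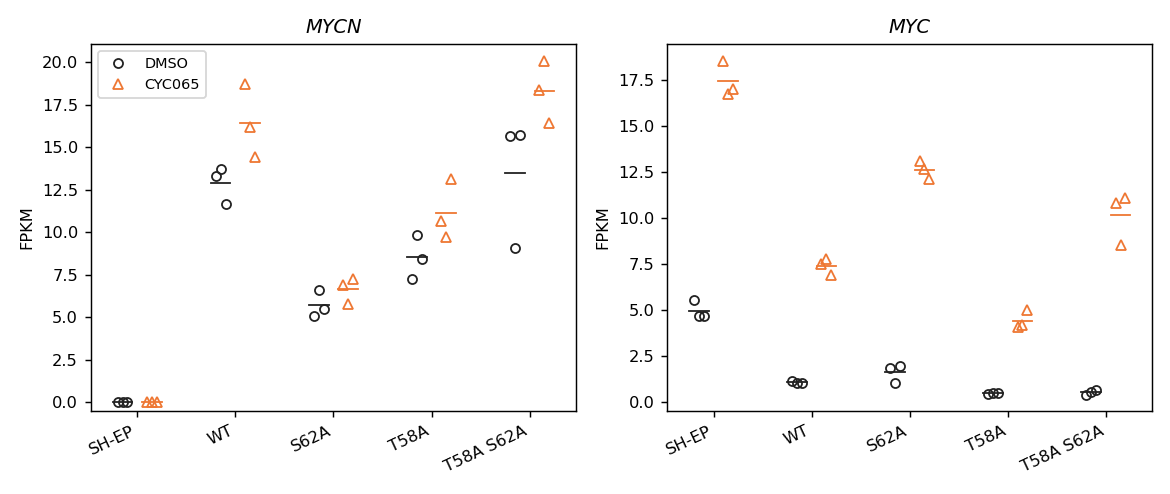
MYCN (left) and MYC (right) in FPKM in each library of the 5 lines, with circles for DMSO, triangles for CYC065 and a line at each group mean. In DMSO, T58A S62A libraries 0 and 2 are at 15.7 FPKM of MYCN and library 1 is at 9.06 FPKM, inside the T58A range of 7.27 to 9.84 FPKM. MYC is at most 0.635 FPKM in both lines in DMSO.

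MYC, the paralog of MYCN, was at 0.414, 0.468 and 0.457 FPKM in T58A and at 0.377, 0.494 and 0.635 FPKM in T58A S62A in DMSO (log2 change 0.12, adjusted p = 0.725). Both lines were below parental SH-EP, which had a mean of 4.94 FPKM. In CYC065, MYC was at 4.04, 4.15 and 5.001 FPKM in T58A and at 10.8, 8.51 and 11.1 FPKM in T58A S62A (log2 change 1.18, adjusted p = 1.58e-05), and the 2 changes differed by 1.06 (adjusted p = 0.0222). Of 14 tested genes of the MYC network, the dimerisation partners and antagonists of MYC, 1 passed, MYCN (7.14% against 16.7% of all genes). MAX, the obligate partner, had a log2 change of −0.05 (adjusted p = 0.757).

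Among 33 tested genes that act on MYCN phosphorylation and turnover, 1 was higher and 5 were lower, 18.2% against 16.7% of all genes, and 2 were lower without T58A library 1 or T58A S62A library 2 and 3 without T58A library 0 or 2. PLK1, a mitotic kinase that stabilises MYCN, was at 73.8, 82.7 and 82.3 FPKM in T58A and 127, 112 and 127 FPKM in T58A S62A, without overlap (log2 change 0.62, SE 0.08, adjusted p = 1.78e-06). Its call was kept with spike-in scaling and lost when T58A library 1 was also left out. HUWE1, a ubiquitin ligase for MYC proteins, fell from 26.1, 25.1 and 26.8 FPKM to 22.9, 19.7 and 19.6 FPKM (log2 change −0.33, adjusted p = 0.000208). PPP2R1A, the scaffold of the PP2A phosphatase that acts on serine 62, had a log2 change of −0.31 (adjusted p = 0.0031). SET, an inhibitor of PP2A, had −0.29 (adjusted p = 0.0132), a call that was lost without T58A library 1 or without T58A S62A library 2. The calls of HUWE1, PPP2R1A and SET were lost with spike-in scaling, with or without T58A library 1. Those of HUWE1 and SET were also lost in a fit of only the libraries compared. With spike-in scaling 1 gene of the list was higher and 0 lower. The enzymes that the substitutions bear on most directly had small changes that did not pass: GSK3B, the threonine 58 kinase, 0.07 (adjusted p = 0.75), FBXW7 0.07 (adjusted p = 0.782), and AURKA, which shields MYCN from FBXW7, −0.07 (adjusted p = 0.616).

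The growth genes that MYC proteins drive were read against the 16.7% of all genes that passed. Of 36 core MYC targets tested, 1 was higher and 3 lower (11.1%, median log2 change 0.01), and of 23 genes that MYC represses, 6 were higher and 2 lower (34.8%, median 0.06). Of 64 ribosome biogenesis genes, 10 were higher and 3 lower (20.3%, median 0.04, with 5 lower without T58A library 2), with NOC2L, a nucleolar protein, at 88.2, 88.4 and 85.1 FPKM in T58A and 109, 97.2 and 111 FPKM in T58A S62A (log2 change 0.28, adjusted p = 0.00136). WDR3, a small subunit processing factor, went the other way, from 36.3, 32.7 and 31.6 FPKM to 19.98, 23.8 and 20.9 FPKM (log2 change −0.64, adjusted p = 2.52e-07). Cytosolic ribosomal proteins (10 higher and 1 lower of 79) and the mitochondrial respiratory chain (14 higher and 3 lower of 65) had medians of 0.08 and 0.08, and 13.9% and 26.2% of them passed. Without T58A library 0 or 2 or T58A S62A library 2, 6, 5 and 4 ribosomal proteins were higher, and without T58A library 0 or T58A S62A library 0 or 2, 8, 9 and 9 respiratory chain genes. The 3 lower respiratory chain genes became 0 without T58A library 0 or 1 or T58A S62A library 2, and 1 without T58A library 2 or T58A S62A library 1. RPS21, whose many processed copies in the genome make its level uncertain, had a log2 change of 0.53 (adjusted p = 6.69e-06), and NDUFA4, a respiratory chain subunit, 0.38 (adjusted p = 0.000249). With spike-in scaling 0 genes of the ribosome, ribosome biogenesis and respiratory chain lists passed, and without T58A library 1 the only one was a lower ribosome biogenesis gene. The E-box CACGTG, which reads the same on both strands, stood in 12.4% of 639 promoter windows of genes that were higher, in 9.47% of 845 windows of genes that were lower and in 10.6% of all 8609 windows matched by symbol, where a window is the 250 bases before and 50 bases after the RefSeq start.

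The largest rises without overlap were in genes of varied function. LCP1 (GRCh37 chr13:46700055-46786006, minus strand), an actin-bundling protein of blood cells that many tumours express, was at 13.3, 12.7 and 11.8 FPKM in T58A and at 80.5, 84.9 and 74.7 FPKM in T58A S62A (log2 change 2.66, SE 0.24, adjusted p = 1.3e-08). FGF13 (chrX:137696888-138304939, minus strand), an intracellular FGF family member of neurons, was at 4.15, 2.4999 and 1.97 FPKM against 15.7, 20.9 and 15.9 FPKM (log2 change 2.62, adjusted p = 8.08e-09). TMPRSS15, the intestinal enteropeptidase, was at 1.38, 1.66 and 1.02 FPKM against 11.6, 13.6 and 10.4 FPKM (log2 change 3.06, adjusted p = 6.9e-07). In each of these 3 genes the lowest T58A S62A library was at least 3 times the highest T58A library. BEX1, a neural adaptor protein, rose from 5.45, 3.96 and 5.58 FPKM to 21.9, 18.6 and 21.4 FPKM, and DLX4, a homeobox factor, from 3.38, 2.61 and 1.45 FPKM to 9.15, 11.2 and 8.25 FPKM. CHI3L1, a secreted glycoprotein of inflamed tissue, DMKN, an epidermal secreted protein, BST2, the antiviral tetherin, and CFD, complement factor D, were at most 1.24 FPKM in every T58A library and had log2 changes of 3.93, 4.38, 2.85 and 2.10. LINC01483, a long noncoding RNA, was listed at 0 in the 3 T58A libraries and at 0.805, 3.01 and 1.12 FPKM in T58A S62A.

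The largest falls included RAB34 (chr17:27041299-27045447, minus strand), a Golgi GTPase needed for cilium formation. It was at 42.3, 44.96 and 38.0 FPKM in T58A and at 3.62, 2.66 and 2.60 FPKM in T58A S62A (log2 change −3.79, SE 0.57, adjusted p = 3.46e-05), and parental SH-EP had a mean of 0.109 FPKM. ICAM1 (chr19:10381769-10397291, plus strand), an adhesion receptor for leukocytes and a target of NF-κB, went from 9.38, 7.97 and 7.79 FPKM to 0.983, 0.752 and 0.752 FPKM (log2 change −3.19, adjusted p = 1.87e-08). EMILIN2, an elastin-associated matrix protein, went from 5.47, 5.65 and 4.41 FPKM to 0.429, 0.601 and 0.451 FPKM, and SH3PXD2A, a scaffold of invadopodia, from 2.82, 2.77 and 3.03 FPKM to 0.308, 0.152 and 0.259 FPKM. The falls named here were picked from genes that passed without overlap between the lines, so their separation was set by that choice. Of all genes, 28.1% did not overlap. ECSCR, an endothelial cell surface protein, had a log2 change of −3.56, SDC2, the heparan sulfate proteoglycan syndecan 2, −2.48, COL21A1, a fibril-associated collagen, −2.89, and LINC01351, a noncoding RNA, −3.09. COL21A1 was at 0.930, 0.655 and 1.03 FPKM in T58A and at 0.0685, 0 and 0.0288 FPKM in T58A S62A, below the pseudocount of 0.1, so the size of its change depends on it. The call of LINC01351 was lost with a pseudocount of 0.01 and in a fit of only the libraries compared. HLA-B, an MHC class I heavy chain, was at 2.05, 1.80 and 1.65 FPKM against 0.0994, 0.112 and 0.167 FPKM, and its reads can be shared with near-identical HLA genes, so its level is uncertain. TMEM216, a protein of the cilium base, was at 4.55, 4.40 and 3.26 FPKM in T58A and was listed at 0 in the 3 T58A S62A libraries.

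Of the 15 largest rises and 15 largest falls, 8 were short noncoding RNAs or a pair of overlapping transcripts (SNORA52, SCARNA9L, MIR922, SNORA20, SNORA25, SNORA81, and BLOC1S5 with its read-through EEF1E1-BLOC1S5), whose levels are uncertain and are not described further. ARHGAP15, a GTPase activating protein, and LINC01023, a noncoding RNA, completed the rises, with log2 changes of 2.62 and 2.63 from T58A levels that reached 0 in library 1.

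**Figure D2:**
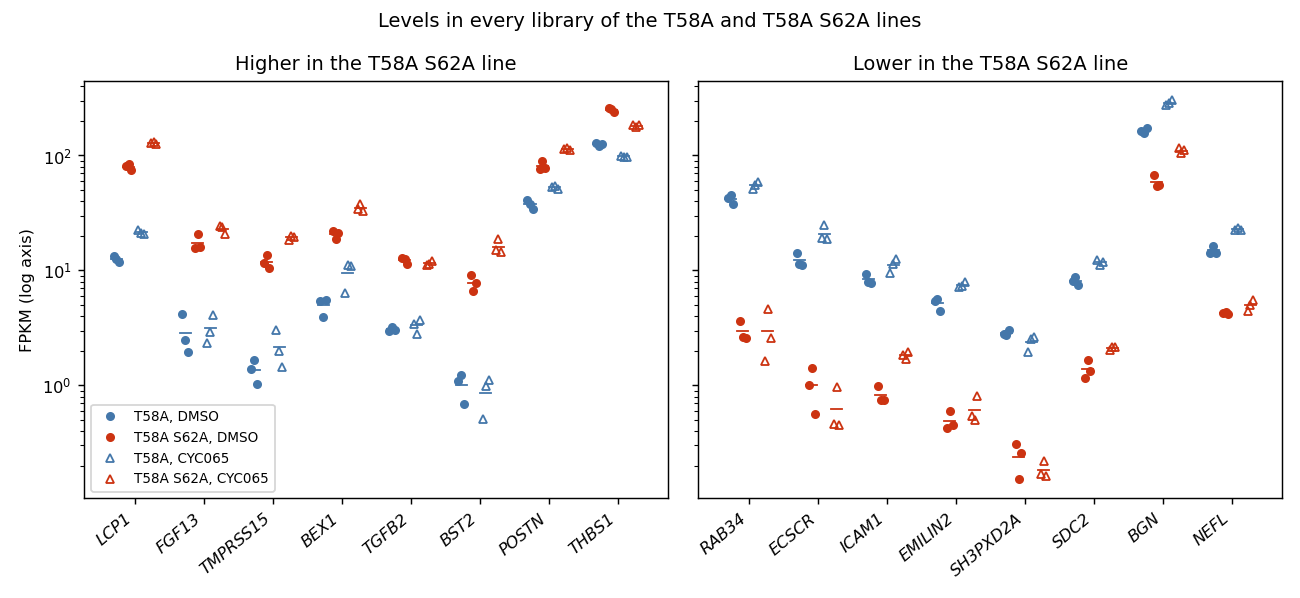
FPKM on a log axis in every library of the T58A (blue) and T58A S62A (red) lines, in DMSO (filled circles) and CYC065 (open triangles), with a line at each group mean. The 16 genes were picked for their change, many by a rule that required no overlap, so the gap between red and blue circles is a description. Of all genes, 28.1% did not overlap. The circles lie at 74.7 to 84.9 FPKM against 11.8 to 13.3 FPKM for LCP1 and at 2.60 to 3.62 FPKM against 38.0 to 44.96 FPKM for RAB34.

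Cholesterol and fatty acid synthesis genes were lower in T58A S62A. These enzymes are switched on together by the SREBP factors when sterols are scarce. Of 29 tested, 18 fell and 0 rose (62.1% against 16.7% of all genes), by log2 changes between −0.69 and −0.21, and the median of the list was −0.31 against 0.00 for all genes. SREBF2, the SREBP of the sterol pathway, was at 8.39, 7.67 and 9.66 FPKM in T58A and at 5.96, 4.64 and 5.23 FPKM in T58A S62A (log2 change −0.69, adjusted p = 8.02e-06). ACLY, which makes cytosolic acetyl-CoA, was at 117, 112 and 118 FPKM against 95.9, 89.5 and 87.5 FPKM (log2 change −0.35, adjusted p = 2.73e-07). FDPS and FDFT1, which make farnesyl diphosphate and squalene, had log2 changes of −0.35 (adjusted p = 9.41e-06) and −0.45 (adjusted p = 2e-05). Of the 18, 16 did not overlap between the lines, as was the case for 1795 of the 1937 genes that passed and 28.1% of all genes. In CYC065 the count was 22 lower and 1 higher of 29, beside 15.9% lower and 14.8% higher of all genes. Leaving out a library left 11 to 18 lower, 11 being the count without T58A S62A library 0. With spike-in scaling 0 passed, and 3 without T58A library 1, while the median stayed 0.30 and 0.29 below that of all genes.

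Genes of the ATF4 pathway, which cells use to make and import amino acids under stress, were also lower in DMSO. Of 26 tested, 14 fell and 0 rose (53.8% against 16.7% of all genes), with a median log2 change of −0.24. PHGDH (chr1:120191034-120286841, plus strand), the first enzyme of serine synthesis, was at 77.0, 83.6 and 78.6 FPKM in T58A and at 33.3, 36.1 and 32.1 FPKM in T58A S62A (log2 change −1.24, SE 0.06, adjusted p = 1.89e-13). PSAT1, the next enzyme, was at 119, 117 and 106 FPKM against 73.0, 75.7 and 65.6 FPKM (log2 change −0.67, adjusted p = 2.08e-08). CHAC1, a glutathione-degrading enzyme, was at 7.27, 9.06 and 8.12 FPKM against 2.61, 3.13 and 3.12 FPKM (log2 change −1.43, adjusted p = 2.04e-05). The lines did not overlap in these 3 genes, which were named for their small p, nor in 28.1% of all genes. PHGDH lies on the same stretch of chromosome 1 as WDR3 (chr1:118472343-118509166, plus strand) and NOTCH2 (chr1:120454176-120643366, minus strand), which were also lower. A difference of that region between the lines was not tested. MTHFD2, a mitochondrial folate enzyme, had a log2 change of −0.33 (adjusted p = 5.24e-05). ATF4, named after its values were seen, was at 175, 171 and 165 FPKM against 124, 127 and 127 FPKM (log2 change −0.43, adjusted p = 6.36e-05). Leaving out a library left 12 to 14 of the list lower. With spike-in scaling 2 passed, and 4 without T58A library 1.

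The treatments differed for part of the ATF4 genes. In CYC065, 10 of the 26 were higher and 6 lower in T58A S62A (median 0.12), beside 14.8% higher and 15.9% lower of all genes. CHAC1 was at 1.02, 0.981 and 0.553 FPKM in T58A and at 2.88, 2.99 and 3.24 FPKM in T58A S62A, a log2 change of 1.76 (adjusted p = 8.55e-07), so its sign was opposite to that in DMSO and the 2 changes differed by 3.19 (adjusted p = 8.17e-07). ASNS, asparagine synthetase, also named after its values were seen, had a log2 change of −0.24 in DMSO (adjusted p = 0.0163, lost without T58A library 0 or 1 or T58A S62A library 2) and 0.55 in CYC065 (adjusted p = 1.26e-06). PHGDH had a log2 change of −1.22 in CYC065, and the treatments differed by 0.02 (SE 0.08, adjusted p = 0.951). Over all genes, the difference between the changes in CYC065 and in DMSO passed for 225 (1.94%), 148 more positive in CYC065 (1.28%) and 77 more negative (0.665%). Of the ATF4 list 10 were more positive and 0 more negative, and of 33 immediate early genes 10 and 0. This test was chosen after the data were seen, with spike-in scaling 1 gene passed it, and with median centring 130 were more positive and 120 more negative.

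The CHAC1 promoter window is shown because it holds TGATGNAA, a core of the composite site that ATF4 binds, searched on both strands. The letters stood in 5 of 22 windows of the ATF4 list and in 1.60% of all 8609 windows. The window is from RefSeq, GRCh38.p14 chr15:40953221-40953520, plus strand, and the capitals mark the match, which lies on the other strand and begins 209 bases before the start.
CHAC1 promoter: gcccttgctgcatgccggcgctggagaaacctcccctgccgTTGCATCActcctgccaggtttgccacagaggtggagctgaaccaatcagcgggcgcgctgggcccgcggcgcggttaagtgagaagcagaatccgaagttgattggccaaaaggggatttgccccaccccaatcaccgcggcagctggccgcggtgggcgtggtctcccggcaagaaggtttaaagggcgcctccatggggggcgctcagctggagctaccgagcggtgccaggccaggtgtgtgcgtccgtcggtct
A match is a description of the sequence and not a measured site.

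Extracellular matrix genes moved in both directions, with more falls than rises. Of 40 matrix proteins and remodelling enzymes, 18 fell and 6 rose (60% against 16.7% of all genes, median −0.16). Of 30 collagens and collagen enzymes 12 fell and 3 rose (50%, median −0.22), and of 17 integrins and laminins 8 fell and 3 rose (64.7%, median −0.14). BGN, the proteoglycan biglycan, was at 165, 156 and 175 FPKM in T58A and at 67.2, 54.4 and 55.2 FPKM in T58A S62A (log2 change −1.49, adjusted p = 1.85e-12). FN1, fibronectin, was at 55.0, 48.9 and 52.3 FPKM against 30.05, 27.7 and 27.03 FPKM (log2 change −0.88, adjusted p = 4.01e-11). The 3 chains of collagen VI fell alike, COL6A1 by 0.73, COL6A2 by 0.87 and COL6A3 by 0.77 on the log2 scale. SPARC, a collagen-binding glycoprotein, and TNC, tenascin C, fell by 0.62 and 0.77. Among adhesion receptors, ITGA2, the collagen-binding α2 integrin, was at 40.3, 38.2 and 37.4 FPKM against 17.6, 21.4 and 18.4 FPKM (log2 change −1.01, adjusted p = 6.45e-09), and ITGA6, ITGA4 and the laminin chain LAMB3 had log2 changes of −0.62, −0.51 and −0.89. POSTN, the matrix protein periostin, went the other way, at 40.6, 38.0 and 34.0 FPKM in T58A and 76.6, 90.0 and 77.1 FPKM in T58A S62A (log2 change 1.11, adjusted p = 5.63e-10). With spike-in scaling the matrix list had 6 lower and 4 higher, the collagens 3 and 1, and the integrins and laminins 2 and 1. Without T58A library 1 these were 9 and 2, 4 and 0, and 5 and 1.

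Genes of the mesenchymal neuroblastoma state were also more often lower. The state is one of a pair of interconvertible identities of neuroblastoma cells, the other being adrenergic. Of 35 mesenchymal markers, 18 fell and 4 rose (62.9%, median −0.25), and this list shares genes, among them SPARC, TNC, FN1 and POSTN, with the matrix list. Of 32 mesenchymal regulators, 8 fell and 3 rose (34.4% against 16.7% of all genes, median −0.09). In this list 5 fell without T58A library 0, 1 or 2 or T58A S62A library 0. PRRX1 (chr1:170631869-170708562, plus strand), a homeobox factor that can set the mesenchymal state, was at 95.3, 83.9 and 87.5 FPKM in T58A and at 39.5, 39.6 and 34.0 FPKM in T58A S62A (log2 change −1.24, SE 0.07, adjusted p = 6.13e-12). NOTCH2, a Notch receptor near PHGDH on chromosome 1, was at 22.7, 21.1 and 22.3 FPKM against 12.03, 11.2 and 10.6 FPKM (log2 change −0.96, adjusted p = 6.81e-11). SNAI2 and the Notch coactivator MAML2 had log2 changes of −0.91 and −0.80. Most adrenergic genes were too low to test. Of the 30 adrenergic regulators listed 12 were tested, and 3 fell and 1 rose (33.3%), with PBX3 and TBX2 at log2 changes of −0.80 and −0.78. Of 15 adrenergic markers tested 4 fell and 1 rose (33.3%). NEFL, the light neurofilament, was at 14.2, 16.4 and 14.3 FPKM against 4.30, 4.36 and 4.18 FPKM (log2 change −1.78, adjusted p = 9.47e-14), with MAB21L1, a neural developmental gene, at −0.61. With spike-in scaling 1 mesenchymal marker was lower and 1 higher and 3 mesenchymal regulators were lower, and without T58A library 1 the counts were 5 lower and 1 higher, and 4 lower.

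The contractile cytoskeleton was split, with 12 lower and 9 higher of 33 (63.6% against 16.7% of all genes, median 0.03). CALD1, caldesmon, TPM2, a tropomyosin, and TAGLN, transgelin, had log2 changes of −0.53, −0.48 and −0.84, and the tropomyosin TPM1 had 0.34. For TPM1 the values were 289, 308 and 289 FPKM in T58A and 367, 401 and 353 FPKM in T58A S62A, and for TPM2 327, 359 and 329 FPKM against 254, 240 and 231 FPKM. The 2 tropomyosin genes, named for their small p, thus moved in opposite directions without overlap, as was the case for 28.1% of all genes. With spike-in scaling 0 of the 33 passed, and without T58A library 1 there were 2, both lower.

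Among secreted and inflammatory targets of NF-κB more genes fell than rose. Of 24 tested, 9 fell, 1 rose and 14 did not pass (41.7% passed, against 16.7% of all genes), with a median log2 change of −0.46. The count of falls was 6 without T58A library 0 or 1, and the median was −0.30 without T58A S62A library 1. Next to ICAM1, the chemokine CXCL8 was at 8.80, 9.43 and 12.2 FPKM in T58A and at 4.80, 2.85 and 3.66 FPKM in T58A S62A (log2 change −1.42, adjusted p = 1.41e-07). PTX3, a soluble pattern receptor, and NFKBIA, the NF-κB inhibitor that NF-κB itself induces, had log2 changes of −0.79 (adjusted p = 2.12e-07) and −0.46 (adjusted p = 1.93e-06). In CYC065, CXCL8 was at 88.2, 87.4 and 86.3 FPKM in T58A and at 92.1, 78.9 and 84.9 FPKM in T58A S62A, with a log2 change of −0.04 (adjusted p = 0.89), and its change differed from that in DMSO by 1.39 (adjusted p = 0.000684). An NF-κB motif, 3 G, any 2 bases, 3 T and 2 C, searched on both strands, stood in 8 of 19 windows of the list (42.1%) and in 2.22% of all windows. With spike-in scaling 2 of the list were lower, and 3 without T58A library 1.

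Among targets of YAP and TEAD, which respond to cell spreading and tension, more passed as higher than as lower. Of 30 tested, 8 rose and 3 fell (36.7%, median 0.03). TGFB2 (chr1:218518678-218617961, plus strand), the TGF-β2 ligand, was at 2.95, 3.21 and 3.04 FPKM in T58A and at 12.8, 12.5 and 11.4 FPKM in T58A S62A (log2 change 1.96, SE 0.11, adjusted p = 8.3e-12). CYR61, a secreted matricellular protein, was at 134, 135 and 140 FPKM against 228, 222 and 215 FPKM (log2 change 0.70, adjusted p = 1.25e-09), and its relative CTGF was at 107, 101 and 105 FPKM against 173, 163 and 157 FPKM (log2 change 0.66, adjusted p = 3.54e-10). ANKRD1, a stretch-responsive cofactor, had a log2 change of 0.65 (adjusted p = 1.9e-06). Of 38 genes of the TGF-β pathway, which shares TGFB2 and CTGF, 5 rose and 6 fell (28.9% against 16.7% of all genes, median −0.01). In this list 3 rose without T58A library 1. THBS1, an activator of latent TGF-β that MYC proteins repress, was at 130, 121 and 125 FPKM against 260, 254 and 237 FPKM (log2 change 1.00, adjusted p = 4.28e-11). With spike-in scaling 5 genes of the YAP list stayed higher, and 1 without T58A library 1, where the calls of CYR61, CTGF and ANKRD1 were lost.

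The TGFB2 promoter window is shown because TGFB2 had the largest rise of the YAP list and the window holds the E-box CACGTG, marked in capitals, 49 bases before the RefSeq start (GRCh38.p14 chr1:218345086-218345385, plus strand).
TGFB2 promoter: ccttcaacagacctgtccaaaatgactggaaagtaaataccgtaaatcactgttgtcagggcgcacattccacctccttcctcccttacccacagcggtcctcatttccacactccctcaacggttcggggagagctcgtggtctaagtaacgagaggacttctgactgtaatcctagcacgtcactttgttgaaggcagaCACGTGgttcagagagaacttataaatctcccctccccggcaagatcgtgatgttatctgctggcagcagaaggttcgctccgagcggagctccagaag
The E-box stood in 22.7% of 22 windows of the YAP list and in 10.6% of all windows, and CATTCC, the core TEAD motif on either strand, in 31.8% and 10.8%. The TGFB2 window also holds CATTCC, which is not marked in capitals.

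Targets of p53 passed about as often as all genes, and those that passed were higher. Of 28 tested, 5 rose and 0 fell (17.9% against 16.7% of all genes, median 0.19). GDF15, a secreted stress cytokine, was at 18.2, 19.6 and 18.3 FPKM in T58A and at 54.4, 44.0 and 59.8 FPKM in T58A S62A (log2 change 1.48, adjusted p = 5.72e-11). CDKN1A, the p21 inhibitor of cell cycle kinases, was at 51.8, 54.5 and 53.1 FPKM against 83.9, 81.2 and 84.5 FPKM (log2 change 0.65, adjusted p = 1.05e-09). TNFRSF10B, a death receptor, and ZMAT3, an RNA-binding protein, had 0.35 and 0.35, and the call of ZMAT3 was lost without T58A library 1 or T58A S62A library 1. With spike-in scaling 2 of the list were higher and 0 lower, and when T58A library 1 was also left out 1 and 0. The calls of TNFRSF10B and ZMAT3 were lost in both, and that of CDKN1A in the second. In CYC065 13 of the 28 were higher and 0 lower, beside 14.8% higher and 15.9% lower of all genes. Between S62A and WT in DMSO the counts were 16 and 0, as deposited, beside 10.1% and 14% of all genes. For S62A against WT, spike-in scaling left 8656 of 8677 genes that passed lower.

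Of 51 mitotic genes 8 fell and 1 rose (17.6% against 16.7% of all genes, median −0.07), the rise being PLK1. KIF20A, a mitotic kinesin, had a log2 change of −0.35. The count of lower mitotic genes was 2 without T58A library 0 or T58A S62A library 2, 5 without T58A library 1 or 2 or T58A S62A library 0, and 13 without T58A S62A library 1. Of 46 replication genes 5 rose and 2 fell (15.2%, median 0.08). In this list 3 rose without T58A library 0 or 2 or T58A S62A library 0 or 2, and 1 fell without T58A library 0 or 1. With spike-in scaling 1 mitotic gene was higher and 0 lower, and 0 replication genes passed. When T58A library 1 was also left out, 0 genes of either list passed.

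Of 28 targets of NRF2, the oxidative stress factor, 7 fell and 1 rose (28.6% against 16.7% of all genes, median −0.05). AKR1C3 and AKR1C1, aldo-keto reductases with near-identical relatives between which reads can be split, were at 7.14, 6.66 and 4.85 FPKM against 2.40, 1.05 and 1.34 FPKM and at 10.1, 6.52 and 9.85 FPKM against 2.78, 3.51 and 3.50 FPKM. ABCC2, an efflux pump, and PGD, of the pentose phosphate pathway, had log2 changes of −1.59 and −0.50. Of 17 imprinted and oncofetal genes 4 fell and 1 rose (29.4%), and the neighbours IGF2 and H19 both fell. IGF2, a fetal growth factor, was at 18.4, 17.9 and 19.1 FPKM against 9.01, 7.56 and 7.12 FPKM (log2 change −1.22, adjusted p = 1.21e-07), and H19 had a mean of 984 FPKM ± 26.4 (SD, n = 3) against 615 FPKM ± 63.5 (log2 change −0.68, limma adjusted p = 7e-05). Of 33 immediate early genes 3 rose and 6 fell in DMSO (27.3%). SPRY2 and SPRY4, feedback inhibitors of receptor signalling, had log2 changes of −1.03 and −0.45, and DUSP4, a MAP kinase phosphatase, and KLF2 had 0.71 and 0.82. With spike-in scaling 3 NRF2 targets and 1 imprinted or oncofetal gene were lower and 0 higher, with or without T58A library 1. Of the immediate early genes 2 were higher and 1 lower, and 0 and 1 without that library. The calls of PGD, H19 and SPRY4 were lost in both, and those of DUSP4 and KLF2 in the second.

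**Figure D3:**
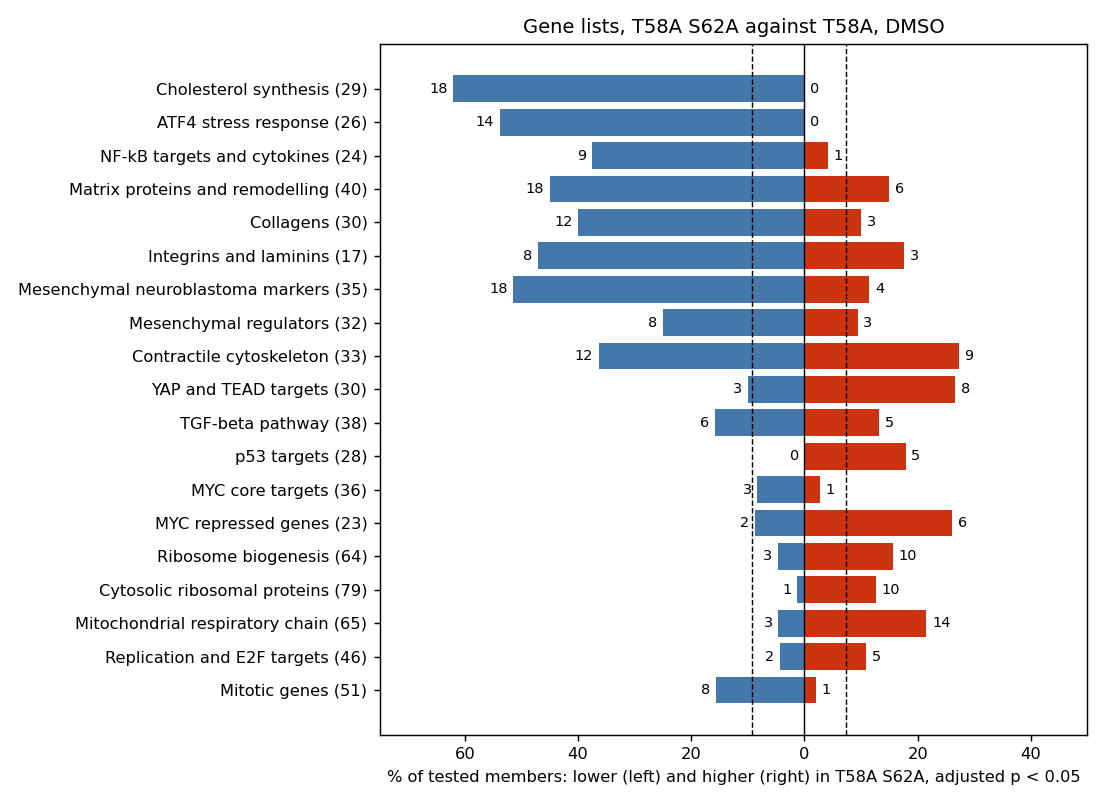
Share of the tested members of 19 gene lists that were lower (blue, left) or higher (red, right) in T58A S62A than in T58A in DMSO, with the number tested in brackets, the number of genes at each bar end, and dashed lines at the share of all genes (9.31% lower, 7.42% higher). Cholesterol synthesis (18 of 29 lower) and the ATF4 response (14 of 26 lower) have 0 genes higher, and p53 targets have 0 lower.

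The difference between the lines was then set beside that after CYC065, which comes from 6 other libraries. In CYC065 3545 genes passed (30.6%), 1708 higher (14.8%) and 1837 lower (15.9%) in T58A S62A. With spike-in scaling 931 were higher and 148 lower there. Of the 1937 genes that passed in DMSO, 542 were higher and 787 lower in both, 68.6% of the DMSO genes and 37.5% of the CYC065 genes, and 22 passed with opposite signs. The sign was the same in 93.5% of the DMSO genes, against 69.8% of all genes. LCP1 was at 22.6, 21.1 and 20.7 FPKM in T58A and at 129, 131 and 127 FPKM in T58A S62A in CYC065 (log2 change 2.58), and RAB34 at 50.7, 55.6 and 58.8 FPKM against 1.64, 4.62 and 2.59 FPKM (log2 change −4.29). BST2, FGF13, TMPRSS15 and CHI3L1 had log2 changes of 4.11, 2.87, 3.17 and 4.55 in CYC065, and ICAM1, EMILIN2, SH3PXD2A and ECSCR −2.54, −3.42, −3.13 and −4.92. These genes were chosen for a change shared by both treatments, so their common direction is a description. Both treatments were given to the same 2 lines.

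**Figure D4:**
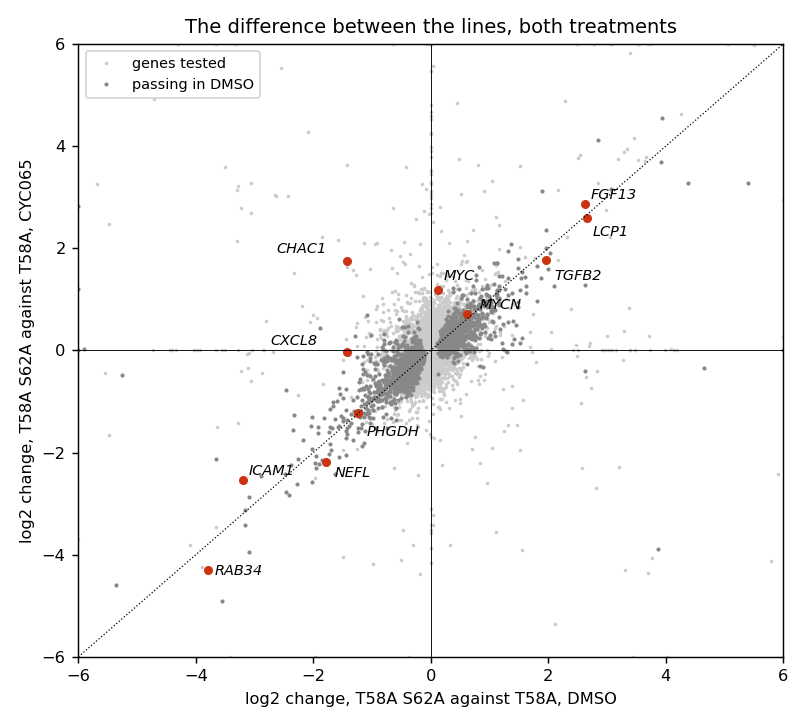
The log2 change between T58A S62A and T58A in DMSO (x axis) and in CYC065 (y axis) for the 11575 genes tested (light grey), with genes that passed in DMSO in dark grey, 11 genes named in red and a dotted line of equality. Changes beyond 6 are drawn at the edge. LCP1, FGF13, TGFB2, RAB34 and ICAM1 lie near the line, and CHAC1 (−1.43 in DMSO, 1.76 in CYC065) and CXCL8 (−1.42 and −0.04) lie off it.

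The same substitution on an otherwise WT MYCN gives a second view of S62A, with 6 other DMSO libraries and 2 other lines. Between S62A and WT, 2792 genes passed (24.1%), 1168 higher (10.1%) and 1624 lower (14%). Of the 1937 genes of the T58A background, 168 were higher and 337 lower in both comparisons, 26.1% of the genes on T58A and 18.1% of those on WT, and 303 passed with opposite signs. The sign was the same in 56.8% of the 1937 genes against 50.6% of all genes. The effect of S62A on T58A minus that on WT passed for 2228 genes (19.2%), 1199 more positive on T58A (10.4%) and 1029 more negative (8.89%). With spike-in scaling the median gene was at 0.83 for this difference and at −0.71 for S62A against WT, beside 0.02 and −0.02 as deposited, so signs here hold for signal as a share of each library, and 7125 and 8677 genes passed with it.

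Several leading genes had log2 changes of the same sign on both backgrounds. LCP1 went from a mean of 0.0397 FPKM in WT to 0.908 FPKM in S62A (log2 change 2.80, against 2.66 on T58A), with a WT mean below the pseudocount of 0.1, so the size of that change depends on it. RAB34 went from a mean of 9.92 to 0.862 FPKM (log2 change −3.61, against −3.79) and ICAM1 from 1.20 to 0.059 FPKM (−3.04, against −3.19), where the S62A mean is likewise below the pseudocount. EMILIN2 and GDF15 had log2 changes of −2.80 and 1.496 on WT, beside −3.16 and 1.48 on T58A. In these 5 genes the difference of the effects lay between −0.35 and −0.02 and did not pass (adjusted p from 0.393 to 0.959). POSTN rose by 1.06 on WT and 1.11 on T58A, and SPRY2 fell by 1.07 and 1.03 on the log2 scale.

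Other genes moved on T58A and little or oppositely on WT. FGF13 had a log2 change of 2.62 on T58A and −2.95 on WT, from a mean of 8.19 FPKM in WT to 0.987 FPKM in S62A, a difference of 5.57 (adjusted p = 1.75e-11). PRRX1 had −1.24 and 0.15 (difference −1.39, adjusted p = 7.49e-10), NOTCH2 −0.96 and 0.36 (difference −1.32, adjusted p = 3.06e-10), and PHGDH −1.24 and −0.13 (difference −1.10, adjusted p = 4.91e-10). TGFB2 had 1.96 and 0.20 (difference 1.76, adjusted p = 4.64e-08), and CYR61 0.70 and −0.23 (difference 0.93, adjusted p = 1.04e-08). SH3PXD2A had −3.16 and −0.25 (difference −2.90, adjusted p = 7.34e-08). DENND3 and CDC42EP1, regulators of small GTPases, had differences of 5.48 and 5.20, which rested on WT levels of 22.9 and 20.3 FPKM against means of 0.601 and 1.13 FPKM in S62A. On T58A, DENND3 had a log2 change of 0.44 that did not pass (adjusted p = 0.319), and CDC42EP1 had 1.16 (adjusted p = 0.0264, lost without any 1 of 4 of the 6 libraries).

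By group, 26 of 64 ribosome biogenesis genes had a more positive effect of S62A on T58A and 1 a more negative one, with 10 higher and 3 lower on T58A beside 1 higher and 33 lower on WT. Cytosolic ribosomal proteins had 24 more positive and 0 more negative of 79, and the respiratory chain 26 and 1 of 65. Over all genes 10.4% were more positive and 8.89% more negative on T58A. The shares higher and lower over all genes were 7.42% and 9.31% on T58A, and 10.1% and 14% on WT. The ATF4 list had 1 more positive and 14 more negative of 26, with 8 higher and 3 lower on WT. Cholesterol synthesis fell on both, with 18 lower on T58A and 13 lower and 1 higher on WT, and 3 and 5 of 29 differed between the backgrounds. The signs of the growth lists follow the scaling, and the mean MYCN level was 8.52 FPKM in T58A, 13.5 FPKM in T58A S62A (with overlap), 12.9 FPKM in WT and 5.72 FPKM in S62A, so these counts describe the 4 lines and their libraries.

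**Figure D5:**
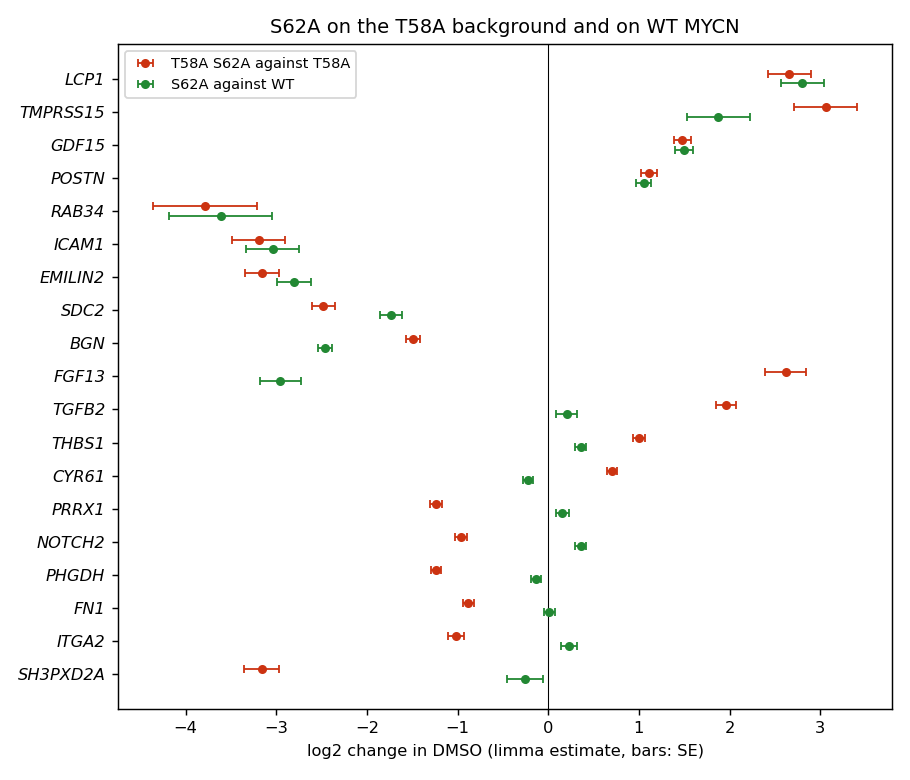
Log2 change with S62A in DMSO for 19 genes, on the T58A background (red) and on WT MYCN (green), as limma estimates with bars of 1 SE. GDF15 lies at 1.48 and 1.496 and POSTN at 1.11 and 1.06, LCP1 and ICAM1 have a mean below the pseudocount on the WT background, FGF13 lies at 2.62 and −2.95, and PRRX1, NOTCH2, PHGDH and SH3PXD2A are at −1.24, −0.96, −1.24 and −3.16 on T58A and at 0.15, 0.36, −0.13 and −0.25 on WT.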

How the data were processed

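RNA-Seq was run on poly(A) RNA of SH-EP lines with ERCC spike-ins added by cell number. The authors aligned reads with HISAT2 and made gene values with Cufflinks on hg19, and deposited 1 table of FPKM per gene and library. The annotation is not given in the sources used here. Of the 26228 genes listed (besides 92 spike-ins), 11575 averaged 1 FPKM or more across the 30 libraries and were tested. Column names carry the numbers 0 to 2 and the labels 1 to 3, so columns were mapped to groups only. The table held 0 columns of other samples.

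FPKM as deposited were taken to log2(FPKM + 0.1), since totals of reads are unknown and a count test could not be run. One fit over the 10 groups of 3 libraries (R 4.3.3, limma 3.58.1, trended variance, 20 residual degrees of freedom) gave every comparison, with Benjamini-Hochberg adjustment over all genes tested. The script was tested on simulated data. Relative depth came from genes with a mean of at most 0.2 FPKM. Spike-in scaling used the 55 spike-ins that averaged 1 FPKM or more.

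The members and gene lists were chosen with earlier results of these data known, and no list was tested as a set. Genes were named by rule: the MYC network and MYCN turnover lists; the 15 largest rises and 15 largest falls among genes that passed without overlap; up to 4 members of each list with the smallest p; the 8 in each direction with the largest change shared by DMSO and CYC065; and the 5 in each direction with the largest difference between backgrounds. Other genes of the same lists were named after their values were seen, as were ATF4 and ASNS. The difference between treatments and the spike-in scaling without T58A library 1 were added after the data were seen. Alternatives were pseudocounts, filters, median centring, spike-in scaling, fewer libraries in the fit, robust variance, quality weights, a fold threshold and leaving out each library. Promoter windows from RefSeq (GRCh38.p14) were matched by symbol for 8609 genes, and gene positions are those of GRCh37. Some genes of the lists are not reported here.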

Additional observations from a re-analysis of the deposited data

Results flagged for a closer look

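The change with S62A in DMSO differed between the T58A and WT backgrounds, by limma's test of the difference itself, for 2228 of the genes tested and for 67 of the genes named here. The values are the log2 change on T58A minus that on WT, in FPKM as deposited, and the median of all genes for this difference was 0.02 as deposited and 0.83 with spike-in scaling. More positive on T58A by more than 1 log2 unit were FGF13 5.57, DENND3 5.48, CDC42EP1 5.20, DMKN 3.91, LINC01483 3.36, CHI3L1 3.31, BST2 2.83, CFD 2.499, MYCN 1.79, TGFB2 1.76, HIST1H1C 1.42, KLF2 1.31, H19 1.25, TAGLN 1.07 and ANKRD1 1.01. Smaller positive differences were BGN 0.97, CYR61 0.93, RPS21 0.76, PLK1 0.70, THBS1 0.64, CTGF 0.56, TAP1 0.51, TPM2 0.42, NOC2L 0.41, GNL2 0.39, NDUFA4 0.31, FDPS 0.27 and SPARC 0.22. More negative on T58A by more than 1 log2 unit were CGA −4.66, SH3PXD2A −2.90, RCAN2 −2.83, TMEM216 −2.67, HLA-B −2.06, AKR1C3 −1.66, TYRP1 −1.60, PRRX1 −1.39, KRT19 −1.38, NOTCH2 −1.32, ITGA2 −1.25, CXCL8 −1.21, PBX3 −1.12, PHGDH −1.10, NEFL −1.09 and COL21A1 −1.02. Smaller negative differences were CHAC1 −0.95, FN1 −0.89, PSAT1 −0.79, DUSP4 −0.78, SDC2 −0.75, AKR1C1 −0.74, ITGA6 −0.71, COL6A3 −0.67, HUWE1 −0.66, LAMB3 −0.66, ITGA4 −0.60, TNC −0.52, ACLY −0.50, ASNS −0.50, WDR3 −0.45, TBX2 −0.45, PGD −0.41, CDKN1A −0.36, AURKA −0.35, CALD1 −0.34, HSPA5 −0.32, KIF20A −0.29 and MTHFD2 −0.25. LINC01483 and TMEM216 were listed at 0 in all 3 libraries of one line, and CGA, a hormone subunit, in 4 of the 6 libraries of both lines, so their differences depend on the pseudocount.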

How the results depend on the processing

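No paired analysis was possible because the replicate numbers of the columns and of the labels differ and tie no libraries together. None of the 102 named genes that passed in DMSO had the other sign under an alternative, but the balance of higher and lower genes, 44.3% higher in DMSO and 48.2% in CYC065, followed the scaling. With spike-in scaling 317 genes passed for T58A S62A against T58A in DMSO (55.2% higher), 1079 in CYC065 (86.3% higher), 8677 for S62A against WT, 7125 for the difference between backgrounds and 1 for the difference between treatments. Without T58A library 1 the first was 326 (20.6% higher). A fit of only the libraries compared gave 698, 2317, 1430, 1439 and 49 genes in the same order, and a threshold of 1.5-fold gave 581, 1024, 626, 935 and 118. Quality weights gave 339 for the difference between treatments. Leaving out 1 library gave 1533 to 2046, 2801 to 3140, 1919 to 2906, 1724 to 2577 and 133 to 270, where 133 was without T58A DMSO library 1. Median centring moved the share higher to 40% in CYC065, from 48.2%, and for the difference between treatments to 52%, from 65.8%. The difference between treatments could not be fitted with the libraries of 1 treatment. Of 108 genes named with a DMSO change, 102 passed. Of these, 45 passed under every alternative that tested them. The filter of a mean of at least 5 FPKM tested 83 of the 108. Of the 102, 96 passed without any 1 library, the exceptions being MYCN, SET, ASNS, ZMAT3, CDC42EP1 and CGA. Calls lost were 45 with spike-in scaling, 38 with it but without T58A library 1, 26 at 1.5-fold and 19 in the smaller fit. Except for the fewer libraries and the stricter threshold, the cause was not tested. Low relative depth limits genes near 1 FPKM.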

Other observations

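Clustered histone genes, most of whose transcripts lack poly(A), had 5 higher and 1 lower of 22 tested (27.3% against 16.7% of all genes). Without T58A library 1 or T58A S62A library 0, 3 were higher. HIST1H1C, a linker histone, was at 65.0, 71.0 and 67.5 FPKM in T58A and at 121, 102 and 144 FPKM in T58A S62A (log2 change 0.84, adjusted p = 4.22e-05), and HIST2H2BE, an H2B gene with polyadenylated transcripts, went from 5.65, 6.22 and 5.73 FPKM to 2.29, 3.63 and 3.28 FPKM (log2 change −0.94). Of 5 epithelial markers 2 were higher and 1 lower (60%). The paired keratins KRT8 and KRT18, whose processed copies make their levels uncertain, had log2 changes of 0.41 and 0.48, and KRT19 had −1.19. The melanocyte genes MITF and TYRP1, the regulator and a pigment enzyme, moved in opposite directions, with 0.74 and −1.08. Of 34 interferon-stimulated genes 4 were higher and 2 lower (17.6%), with TRIM22, an antiviral ligase, at 1.95 and IFI44L at −0.97. The count lower was 1 without any 1 library other than T58A S62A library 1. Of 17 genes of MHC class I and antigen processing 3 were higher, among them the peptide transporter TAP1 at 0.64, and 1 lower, HLA-B (23.5%). The count higher was 1 without T58A library 0 or 2 or T58A S62A library 2. Of 31 genes of the unfolded protein response and heat shock 4 were higher and 3 lower (22.6%), with the chaperones DNAJB9 at 0.67 and HSPA5 at −0.20. The 4 became 2 without T58A library 0 or 1 or T58A S62A library 1 and 1 without T58A library 2, and the 3 became 1 without T58A library 0 or T58A S62A library 1.

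Of 34 glycolysis and hypoxia genes 5 were higher and 2 lower (20.6% against 16.7% of all genes). Without any 1 library other than T58A S62A library 1, 2 or 3 were higher, and without that library 4 were lower. Of 19 receptor tyrosine kinases 3 were higher and 4 lower (36.8%), and of 22 BCL2 family genes 0 and 3 (13.6%). In the BCL2 family 1 was lower without T58A library 0 or T58A S62A library 2. Of 8 nuclear and short noncoding RNAs 1 was higher and 0 lower (12.5%), and of 4 Schwann cell markers 0 and 1 (25%). The single tested endothelial marker and the single tested immune marker did not pass. Mitochondrially encoded genes were not analysed here. In CYC065, 18 of 33 immediate early genes were higher and 2 lower in T58A S62A, beside 14.8% higher and 15.9% lower of all genes. KLF2, an endothelial and quiescence factor, had a log2 change of 1.62 in CYC065 against 0.82 in DMSO, a difference of 0.81 (adjusted p = 0.0215).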
